A study of Caenorhabditis elegans with 12 samples.

Results

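The pals genes of Caenorhabditis elegans form a large family named after a protein signature that its members share. Members were taken as the genes whose WormBase symbol starts with pals-, and 22 of the 17430 genes listed in the deposited tables met this rule. The WBcel235 annotation holds 38 pals symbols, and the other 16, among them pals-5, whose promoter drives the usual fluorescent reporter of this pathway, were not analysed here.

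RNA was sequenced from whole bodies of wild-type N2 adults, with 3 replicates in each of 4 conditions, or 12 libraries. The worms had been raised to the L4 larval stage on bacteria giving control RNAi or stt-3 RNAi (stt-3 encodes the catalytic subunit of the oligosaccharyl transferase that attaches N-linked sugars to proteins in the endoplasmic reticulum). They were then placed for 12 h either on the same RNAi bacteria, which are E. coli, or on PA14, a strain of the pathogen Pseudomonas aeruginosa. The deposited value per gene is a normalized score and not a read count, so the sequencing depth is unknown and no counting error can be given.

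The family is best known for the intracellular pathogen response, a transcriptional program that worms turn on when the Orsay virus or microsporidia grow inside intestinal cells. Some members are induced as part of that program, and others set it. PALS-22 holds the program off and PALS-25, encoded in the same operon, turns it on when PALS-22 is lost. PALS-17 is another negative regulator, and PALS-16 and PALS-20 are positive regulators that act after it. The program is regarded as separate from the p38 MAP kinase PMK-1 pathway through which worms respond to PA14.

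The label of the RNAi group was checked first. In the deposited libraries stt-3 did not have lower values with its label: it was at 398 to 434 in control RNAi and 461 to 488 under the label on E. coli, and 367 to 434 against 469 to 551 on PA14. A gene for another subunit of the same transferase, ostd-1, was lower, at 624 to 666 against 115 to 138 on E. coli (log2 fold change -2.35) and at 656 to 823 against 98 to 114 on PA14 (log2 fold change -2.86). Libraries whose label reads stt-3 RNAi are therefore called stt-3-labelled throughout. Replicate 3 of the stt-3-labelled libraries on E. coli stood nearest to the PA14 libraries on the first principal component of the 12892 tested genes outside the family, at -38.3, where the other E. coli libraries lay between -106.0 and -65.3 and the PA14 libraries between 60.3 and 92.7.

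In these worms PA14 raised a set of pals genes with either RNAi, and the stt-3-labelled libraries carried higher values of some members on PA14. On E. coli some members passed the test as higher too, but each of these was lost in some of the alternative fits. Of the 22 listed members, 16 had values high enough to test. A gene was called changed when its fitted change exceeded 2-fold and its adjusted p was under 0.05 (limma on log2(value + 1), Benjamini-Hochberg adjustment over all 12908 genes tested). By this rule PA14 raised 6 of the 16 in control RNAi (pals-6, pals-14, pals-19, pals-23, pals-24 and pals-39), beside 10.7% of all tested genes, and 9 in the stt-3-labelled libraries (the same 6 with pals-17, pals-26 and pals-33), beside 8.30%. Against control RNAi, the stt-3-labelled libraries had higher values of 4 members on E. coli (pals-6, pals-14, pals-26 and pals-33), beside 1.98% of all tested genes, and of 5 on PA14 (the same 4 with pals-34), beside 1.97%. As pals-14, pals-26 and pals-33 had values high enough to test only through the stt-3-labelled libraries on PA14, nothing is read from the counts against these shares. pals-16 was lower on PA14, where 3.34% of all tested genes were. The antagonists pals-22 and pals-25 passed the 2-fold threshold in no comparison.

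**Figure D1:**
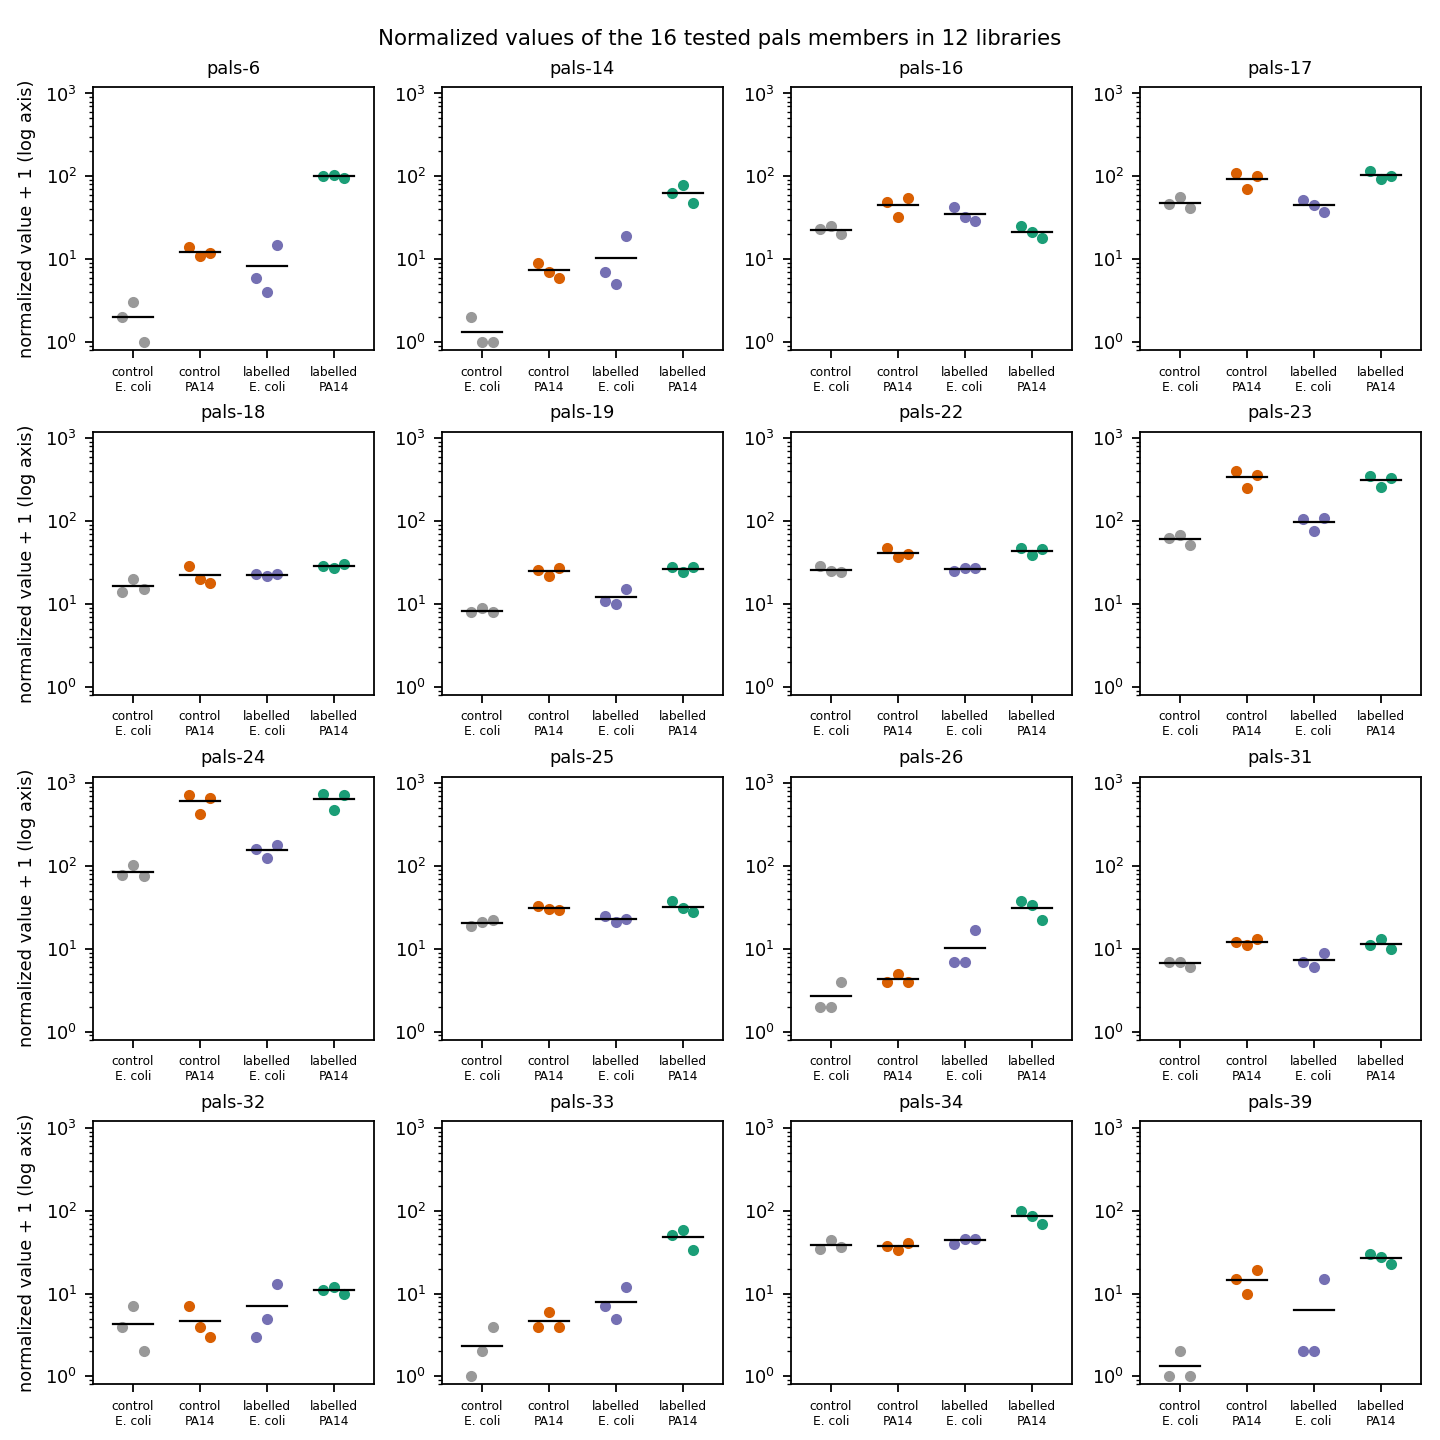
Each panel plots 1 tested pals gene, with the normalized value plus 1 on a log axis and the 4 conditions on the horizontal axis; a point is a library and a line the mean of 3. The means of pals-6 and pals-14 are lowest in control RNAi on E. coli and highest in the stt-3-labelled libraries on PA14, whereas the mean of pals-16 is lowest on PA14 in the stt-3-labelled libraries.

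Because 1 was added to each value, the fitted folds of low genes are smaller than those of their values. Genes entered the test when 3 or more libraries held a value of 10 or higher, as for 16 of the 22 members. Of these, pals-14, pals-26, pals-31, pals-32 and pals-33 reached 10 in enough libraries only because of the condition in which they were highest, so a count over the tested members is not a count over the family. In all, 13 of the 16 tested members had their highest mean in the stt-3-labelled libraries on PA14, and pals-16, pals-23 and pals-31 had theirs in control RNAi on PA14. The 13 include pals-14, pals-26, pals-32 and pals-33, tested only through that condition. The share over all tested genes was not counted, so nothing is read from the 13.

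The annotation places the 38 symbols on chromosomes I, III, IV and V, in 11 loci when neighbours less than 100 kb apart are joined. The listed members were 4 of 15 on chromosome I, 11 of 14 on chromosome III, none of the pair on chromosome IV and 7 of 7 on chromosome V. In the 61.3 kb cluster on chromosome I, at chrI:13083321-13144623, 3 of 14 genes were listed, whereas all 4 genes of the 17.5 kb cluster at chrIII:120435-137975 were. How alike the members are in sequence, and so how reads from close copies were shared among them, was not measured here. The library kit named for these samples does not keep strand, so reads of genes that overlap on opposite strands cannot be told apart.

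The summed value of the 22 listed members was 321, 387 and 307 in control RNAi on E. coli against 1515, 967 and 1399 in control RNAi on PA14. In the stt-3-labelled libraries it was 517, 433 and 595 on E. coli against 1802, 1404 and 1623 on PA14. Every PA14 library thus exceeded every E. coli library, and the stt-3-labelled libraries lay above control RNAi on E. coli but overlapped it on PA14. As these are whole worms, a lower value of a gene can come from fewer cells of a type or from less RNA per cell, and the 2 cannot be told apart. A pair of adjacent genes on chromosome III, pals-23 and pals-24, made up 41.0 to 43.4% of the sum in control RNAi on E. coli against 69.5 to 74.1% on PA14, and with the label 46.2 to 51.1% against 52.2 to 64.8%.

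Levels between members were compared as value per kilobase of exon. pals-24 was highest in each condition, at a mean of 83.0 per kb in control RNAi on E. coli, 595 on PA14, and 153 and 635 in the stt-3-labelled libraries. The next in control RNAi on E. coli were pals-17 at 54 per kb, pals-34 at 50.2 and pals-23 at 40.3. In the stt-3-labelled libraries on PA14 the order was pals-24, pals-23 at 211, pals-17 at 117, pals-34 at 112, pals-6 at 68.8 and pals-14 at 52.5 per kb. pals-6 and pals-14 were thus among the lowest members in control RNAi on E. coli, at 0.69 and 0.281 per kb, and among the 6 highest in the stt-3-labelled libraries on PA14.

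Among the regulators, pals-22, the repressor of the program (chrIII:132418-134401), had values of 28, 24 and 23 in control RNAi on E. coli and 24, 26 and 26 in the stt-3-labelled libraries. On PA14 it had 47, 36 and 39 in control RNAi against 46, 38 and 45 with the label. The RNAi groups overlapped on either food and the PA14 libraries lay above the E. coli libraries in both groups. The log2 change by PA14 was 0.68 ± 0.14 (SE) in control RNAi, with a 95% interval of 0.36 to 0.99, and 0.74 ± 0.14 in the stt-3-labelled libraries, both past the adjusted threshold (limma, adjusted p = 0.00225 and 0.00175) but under 2-fold. Between the RNAi groups it was 0.02 on E. coli (95% interval -0.29 to 0.33) and 0.08 on PA14 (-0.23 to 0.39), so a change of 2-fold in either direction lay outside these intervals.

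Its antagonist pals-25 starts 92 bases after the end of pals-22, on the same strand. It had 18, 20 and 21 in control RNAi on E. coli against 32, 29 and 28 on PA14. With the stt-3 label it had 24, 20 and 22 on E. coli against 37, 30 and 27 on PA14. The change by PA14 was 0.57 ± 0.15 in control RNAi and 0.48 ± 0.15 in the stt-3-labelled libraries on the log2 scale (limma, adjusted p = 0.00834 and 0.0229), again under 2-fold. Per library the value of pals-22 was 1.0 to 1.67 times that of pals-25.

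pals-17, the negative regulator on another part of chromosome III (chrIII:1390450-1391852), had 45, 55 and 41 in control RNAi on E. coli against 108, 70 and 101 on PA14. Under the stt-3 label the values were 51, 44 and 36 on E. coli against 115, 91 and 100 on PA14. PA14 libraries were above all E. coli libraries in each group and the RNAi groups overlapped on either food. The gene was called higher with PA14 in the stt-3-labelled libraries (log2 1.21 ± 0.19, adjusted p = 0.000524), while in control RNAi its change of 0.96 ± 0.19 stayed just under 2-fold. The difference between these changes was 0.26 ± 0.27 (adjusted p = 0.825), so the calls in one group and not the other do not show a difference.

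pals-16, a positive regulator (chrIII:1399970-1401401), was the member called for the interaction, the test of whether its change by PA14 differed between the RNAi groups. In control RNAi it had 22, 24 and 19 on E. coli against 48, 31 and 54 on PA14. The stt-3 label gave 42, 31 and 28 on E. coli against 24, 20 and 17 on PA14. The groups did not overlap in any of the 4 comparisons: PA14 values were above those on E. coli in control RNAi and below them in the stt-3-labelled libraries. The log2 change by PA14 was 0.97 ± 0.23 (95% interval 0.46 to 1.48) in control RNAi and -0.69 ± 0.23 (-1.20 to -0.18) in the stt-3-labelled libraries, and the difference between them was -1.66 ± 0.33 (limma interaction, adjusted p = 0.0318). On PA14 it was lower in the stt-3-labelled libraries than in control RNAi, with a log2 difference of -1.06 ± 0.23 (adjusted p = 0.0137). Leaving out 1 library at a time kept the sign of the interaction in all 12 cases, between -1.89 and -1.50, but its adjusted p rose above 0.05 in 8 of them: without any 1 control RNAi library on E. coli, control RNAi replicate 1 or 3 on PA14, labelled replicate 1 on E. coli, or labelled replicate 2 or 3 on PA14 (0.0504 to 0.0957). The call on PA14 was lost without control RNAi on PA14 replicate 1 (0.0565) or 3 (0.0618) or labelled PA14 replicate 3 (0.0587).

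pals-20, the other positive regulator, was too low to test, at 0 in every E. coli library, 1, 1 and 2 in control RNAi on PA14 and 1, 1 and 1 in the stt-3-labelled libraries on PA14. Its exons overlap those of Y82E9BR.5 on the other strand.

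The family members in the same cluster as pals-16 and pals-17 include pals-19 and pals-18, whose exons overlap on the same strand, so the split of reads between them is uncertain. pals-19 had 7, 8 and 7 in control RNAi on E. coli against 25, 21 and 26 on PA14. With the label it had 10, 9 and 14 on E. coli against 27, 23 and 27 on PA14. It rose with PA14 in both groups, by 1.58 ± 0.19 in control RNAi (adjusted p = 7.49e-05) and 1.17 ± 0.19 in the stt-3-labelled libraries (adjusted p = 0.000578). For pals-18 the values ran from 13 to 29 over all libraries and it was called in no comparison, with a log2 change by PA14 of 0.44 ± 0.20 and 0.34 ± 0.20.

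The most abundant pair, pals-24 and pals-23, lie 87 bases apart on the same strand in the cluster that holds pals-22 and pals-25. pals-24 had 76, 101 and 75 in control RNAi on E. coli against 719, 422 and 664 on PA14. Under the stt-3 label it had 160, 124 and 180 on E. coli against 735, 478 and 716 on PA14. The PA14 libraries did not overlap the E. coli libraries in either group. It rose by 2.80 ± 0.24 on the log2 scale in control RNAi, or 6.97-fold (adjusted p = 4.35e-05), and by 2.04 ± 0.24, or 4.11-fold, in the stt-3-labelled libraries (adjusted p = 0.000133).

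pals-23 had 62, 67 and 51 in control RNAi on E. coli against 403, 250 and 362 on PA14. The labelled replicates ran from 76 to 108 on E. coli, with a mean of 96.0 ± 17.4 (SD, n = 3), and had 354, 255 and 335 on PA14. Replicate 2 was the lowest PA14 library of both genes in both groups. pals-23 rose by 2.46 ± 0.21 in control RNAi (adjusted p = 4.35e-05) and by 1.70 ± 0.21 in the stt-3-labelled libraries (adjusted p = 0.000143). On E. coli the stt-3-labelled libraries were all above control RNAi for both genes, by 0.87 ± 0.24 for pals-24 (adjusted p = 0.0552) and 0.66 ± 0.21 for pals-23 (adjusted p = 0.0889), and neither passed the test. On PA14 the RNAi groups overlapped, with differences of 0.11 (95% interval -0.42 to 0.63) and -0.09 (-0.54 to 0.36). The interactions were -0.76 ± 0.33 and -0.75 ± 0.29 (adjusted p = 0.372 and 0.287). The value of pals-24 was 1.23 to 2.14 times that of pals-23 in the 12 libraries.

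The members pals-6 and pals-14 are neighbours in the chromosome I cluster that also holds the reporter gene pals-5, at chrI:13136390-13138544 and chrI:13139122-13141898. pals-6 had 1, 2 and 0 in control RNAi on E. coli against 13, 10 and 11 on PA14. With the stt-3 label it had 5, 3 and 14 on E. coli and a lowest value of 94, a median of 101 and a mean of 99.7 ± 5.13 (SD, n = 3) on PA14. No 2 conditions overlapped except the stt-3-labelled libraries on E. coli with control RNAi on PA14. The gene was higher in the stt-3-labelled libraries by 1.97 ± 0.48 on E. coli (adjusted p = 0.0352) and by 3.03 ± 0.48, or 8.20-fold, on PA14 (adjusted p = 0.00208). PA14 raised it by 2.76 ± 0.48 in control RNAi (adjusted p = 0.000687) and by 3.82 ± 0.48, or 14.1-fold, in the stt-3-labelled libraries (adjusted p = 0.000165), the largest change of any tested member in any comparison. The difference between the PA14 changes was 1.07 ± 0.67 (adjusted p = 0.617), which did not pass the test.

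pals-14 had 1, 0 and 0 in control RNAi on E. coli against 8, 6 and 5 on PA14. Under the stt-3 label the values were 6, 4 and 18 on E. coli against 62, 78 and 47 on PA14. Its pattern was that of pals-6: stt-3-labelled libraries were above control RNAi on either food, by 2.79 ± 0.47 on E. coli (adjusted p = 0.00687) and 3.10 ± 0.47 on PA14 (adjusted p = 0.00172). The PA14 changes of 2.52 ± 0.47 and 2.83 ± 0.47 were both called (adjusted p = 0.00114 and 0.000749) and differed by 0.31 ± 0.67 (adjusted p = 0.928). Replicate 3 of the stt-3-labelled libraries on E. coli, the library that stood nearest to PA14, held the highest E. coli value of both genes.

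pals-26 (chrIII:4375154-4378907) and pals-33 (chrV:3673380-3676632) lie on different chromosomes and had similar values. pals-26 had 1, 1 and 3 in control RNAi on E. coli against 3, 4 and 3 on PA14. The stt-3 label gave 6, 6 and 16 on E. coli against 37, 33 and 21 on PA14. In control RNAi the foods overlapped, and the stt-3-labelled libraries were above control RNAi on either food. It was higher in the stt-3-labelled libraries by 1.90 ± 0.41 on E. coli (adjusted p = 0.0209) and 2.82 ± 0.41 on PA14 (adjusted p = 0.00126).

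pals-33 had 0, 1 and 3 in control RNAi on E. coli against 3, 5 and 3 on PA14. With the label it had 6, 4 and 11 on E. coli against 50, 57 and 33 on PA14. The stt-3-labelled libraries on PA14 stood alone at the top, as for pals-26. The differences between the RNAi groups were 1.90 ± 0.49 on E. coli (adjusted p = 0.0453) and 3.34 ± 0.49, or 10.2-fold, on PA14 (adjusted p = 0.00138). PA14 raised both genes in the stt-3-labelled libraries, by 1.70 ± 0.41 for pals-26 and 2.63 ± 0.49 for pals-33 (adjusted p = 0.00659 and 0.00150), while in control RNAi their changes by PA14 were 0.77 ± 0.41 and 1.19 ± 0.49 (adjusted p = 0.137 and 0.0628). The interactions, 0.92 ± 0.58 and 1.44 ± 0.70, did not pass the test (adjusted p = 0.612 and 0.437), so the calls in the stt-3-labelled libraries alone do not show that the PA14 changes differed. Replicate 3 of the stt-3-labelled libraries on E. coli again held the highest E. coli value of both genes, and without it the differences on E. coli were 1.47 for pals-26 (adjusted p = 0.0515) and 1.56 for pals-33 (adjusted p = 0.143), neither of them called.

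pals-34 (chrV:7955404-7956497) was level in 3 of the 4 conditions. It had 34, 43 and 36 in control RNAi on E. coli, 37, 33 and 40 in control RNAi on PA14, and 39, 45 and 45 in the stt-3-labelled libraries on E. coli. The stt-3-labelled libraries on PA14 had 99, 85 and 69, above every other library. It was higher there than in control RNAi on PA14 by 1.17 ± 0.15 (adjusted p = 0.000652). The change by PA14 was -0.04 ± 0.15 in control RNAi and 0.94 ± 0.15 in the stt-3-labelled libraries, and the interaction of 0.98 ± 0.22 narrowly missed the threshold (adjusted p = 0.0529).

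pals-39 (chrV:12441663-12443854) had 0, 1 and 0 in control RNAi on E. coli against 14, 9 and 18 on PA14. Under the stt-3 label it had 1, 1 and 14 on E. coli against 29, 27 and 22 on PA14. The high value on E. coli was again that of replicate 3. PA14 raised it by 3.49 ± 0.68 in control RNAi (adjusted p = 0.00145) and 2.78 ± 0.68 in the stt-3-labelled libraries (adjusted p = 0.00709). The RNAi groups did not overlap on PA14, yet the fitted differences of 1.64 ± 0.68 on E. coli and 0.92 ± 0.68 on PA14 did not pass the test (adjusted p = 0.201 and 0.489).

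The flanking genes pals-37 and pals-38, too low to test, were highest in the stt-3-labelled libraries on PA14 as well. pals-37, which lies 142 bases from pals-39, had 0 in all 3 control RNAi libraries on E. coli against 4, 4 and 9 on PA14, and with the label 0, 0 and 7 against 10, 12 and 8. For pals-38 the control RNAi libraries had 1, 0 and 0 on E. coli and 0 in all 3 on PA14, and the labelled ones 1, 2 and 3 on E. coli and then 8, 9 and 7. The gene pals-27, in the locus of pals-26, had at most 1 in control RNAi, and with the label 0, 1 and 3 on E. coli against 13, 8 and 4 on PA14. So pals-37 was above 0 on PA14 in either group, and pals-38 and pals-27 were near 0 in control RNAi on either food. The value of 13 was the highest of any untested member.

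The remaining members were low or level. pals-31 ran from 5 to 8 on E. coli and from 9 to 12 on PA14 over both RNAi groups, and its PA14 changes of 0.85 ± 0.22 and 0.64 ± 0.22 passed the adjusted threshold (adjusted p = 0.00711 and 0.0334) but were under 2-fold. pals-32 was called in no comparison: it had 3, 6 and 1 in control RNAi on E. coli against 6, 3 and 2 on PA14, and with the label 2, 4 and 12 against 10, 11 and 9. pals-1 and pals-4, both on chromosome I, stayed at 8 or less in every library and were not tested.

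None of the 16 tested members was called lower with PA14 in either RNAi group, where 15.9% of all tested genes were called lower in control RNAi and 14.0% in the stt-3-labelled libraries. The median log2 change of the tested members was 0.96 in control RNAi and 1.19 in the stt-3-labelled libraries, beside medians of 0.04 and 0.07 over all tested genes. In each group 15 of 16 members had a fitted change above 0, and the share of all tested genes above 0 was not counted. The exceptions were pals-34 in control RNAi and pals-16 in the stt-3-labelled libraries, whose change of -0.69 passed the adjusted threshold (adjusted p = 0.0313) but was under 2-fold. Because pals-14, pals-26, pals-31, pals-32 and pals-33 could be tested only through a PA14 condition, nothing is read from these counts and medians.

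**Figure D2:**
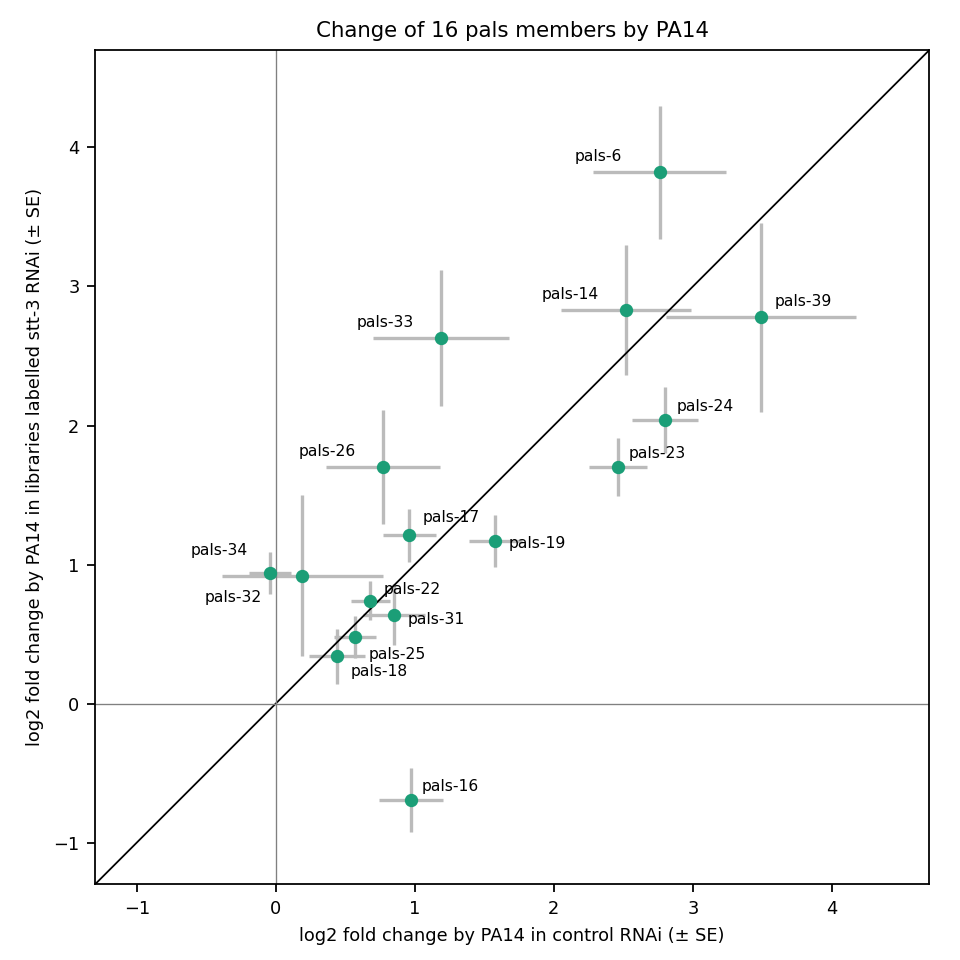
Each point is 1 of the 16 tested pals genes, with its log2 fold change by PA14 in control RNAi on the horizontal axis and its change in stt-3-labelled libraries on the vertical axis; bars are standard errors and the diagonal marks equal change. pals-16 lies alone below 0 on the vertical axis at -0.69. pals-24 and pals-23 are among the members to the right of the diagonal, and their interactions were not called.

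Between the RNAi groups, 0 members were called lower on E. coli and 1 on PA14, beside 1.23% and 3.34% of all tested genes. The median of the members was 0.60 on E. coli and 0.27 on PA14, beside 0.02 and 0.05 over all genes. These medians include the members tested only through a PA14 condition, so nothing is read from them either. The 4 comparisons share samples (each condition enters a pair of them), so a member's calls are not independent of each other. For the interaction, 0 members were called higher and 1 lower (pals-16), beside 0.418% and 1.24% of all genes, with medians of -0.01 and 0.05.

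The calls on E. coli lay near the threshold. The count of 4 fell to 1 without control RNAi replicate 1 or labelled replicate 3 on E. coli, and to 2 without control RNAi replicate 2 or labelled replicate 1 on E. coli, control RNAi replicate 1 or 3 on PA14, or any 1 labelled library on PA14. pals-14 was called in all 12 such fits, with a log2 change between 2.23 and 3.19, whereas pals-26 was lost in 3, pals-6 in 9 and pals-33 in 10. In 5 of the losses of pals-6 and 6 of those of pals-33 the library left out was a PA14 library, outside the comparison, so the log2 differences of 1.97 and 1.90 did not move and the adjusted p lay between 0.0502 and 0.0572 for pals-6 and between 0.0578 and 0.0677 for pals-33. On PA14 these 4 genes and pals-34 were called in all 12. The filter was not repeated in these fits, and pals-14, pals-26 and pals-33 were tested only through the stt-3-labelled libraries on PA14. Nothing is therefore read from their calls in all 12.

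**Figure D3:**
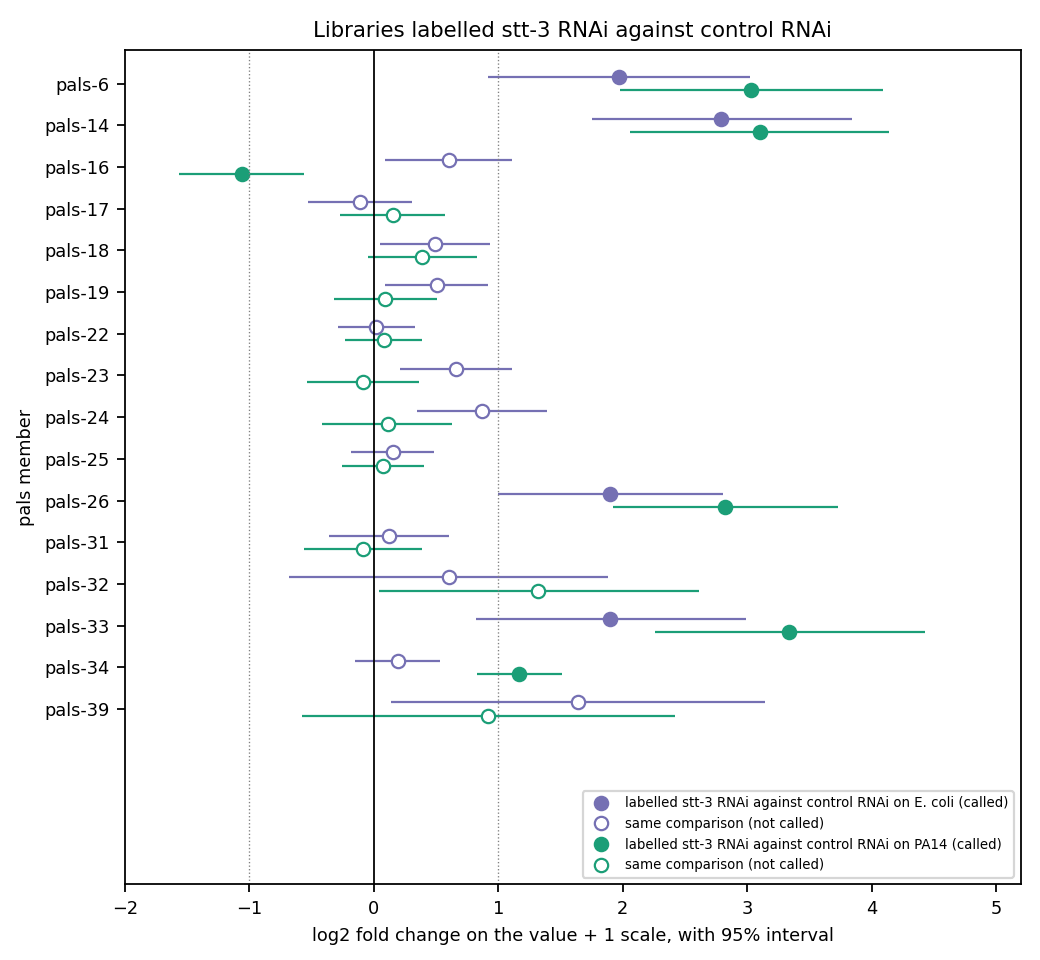
The horizontal axis gives the log2 fold change of stt-3-labelled libraries over control RNAi, on E. coli (purple) and on PA14 (green), for the 16 tested pals genes; bars are 95% intervals, filled points are called and dotted lines mark 2-fold. pals-6, pals-14, pals-26 and pals-33 are filled on either food, pals-34 on PA14 alone, and pals-16 is the filled point left of 0.

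Other genes of the intracellular pathogen response were taken as a list of 13, of which 8 were listed in the tables and 7 tested. They include a ubiquitin ligase built from the cullin CUL-6, the RING protein RCS-1, the Skp1-related SKR-3 and SKR-4 and the F-box protein FBXA-158, which acts in proteostasis, and EOL-1, related to a decapping enzyme. With PA14, all 7 were called higher in control RNAi (median log2 1.89), beside 10.7% of all tested genes. PA14 raised 5 of 7 in the stt-3-labelled libraries (median 1.21), beside 8.30%. For the interaction 0 of 7 were called, beside 0.418% of all genes higher and 1.24% lower. The counts therefore do not show that the PA14 changes differed between the RNAi groups. In the stt-3-labelled libraries, 5 of 7 were called higher than in control RNAi on E. coli (cul-6, skr-3, skr-4, fbxa-158 and eol-1), beside 1.98%. On PA14 2 of 7 were (fbxa-158 and eol-1), beside 1.97%, and none was called lower on either food. On E. coli skr-3 lay near the threshold (limma, adjusted p = 0.0482) and cul-6 was at 0.0245. The alternative fits were not examined for the partner genes. As fbxa-158 and eol-1 reached 10 in enough libraries only through the stt-3-labelled ones on PA14, nothing is read from their part of these counts. sdz-6 had 81, 37 and 50 in control RNAi on PA14 against 24, 12 and 20 with the label. Its groups there did not overlap, and the log2 difference of -1.51 ± 0.45 missed the threshold (adjusted p = 0.0580).

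eol-1 had 1, 3 and 0 in control RNAi on E. coli against 6, 5 and 5 on PA14, and in the stt-3-labelled libraries 6, 5 and 16 on E. coli against 32, 28 and 32 on PA14. Its condition means were thus ordered like those of pals-14, with differences between the RNAi groups of 2.16 ± 0.49 on E. coli and 2.32 ± 0.49 on PA14 (adjusted p = 0.0267 and 0.0121). fbxa-158 was listed at 0 in control RNAi on E. coli and at 2 in all 3 on PA14, and had 6, 4 and 6 on E. coli against 13, 11 and 11 on PA14 in the stt-3-labelled libraries. The more abundant skr-4 had 108, 189 and 186 in control RNAi on E. coli against 811, 561 and 754 on PA14, and 379, 278 and 401 and then 1485, 1189 and 1330 in the stt-3-labelled libraries. It rose with PA14 by 2.16 ± 0.23 and 1.93 ± 0.23 (adjusted p = 5.63e-05 and 0.000140), as the more abundant pals-23 and pals-24 did. cul-6 had 6, 7 and 6 in control RNAi on E. coli against 30, 18 and 33 on PA14, and 24, 15 and 12 and then 36, 27 and 34 in the stt-3-labelled libraries.

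**Figure D4:**
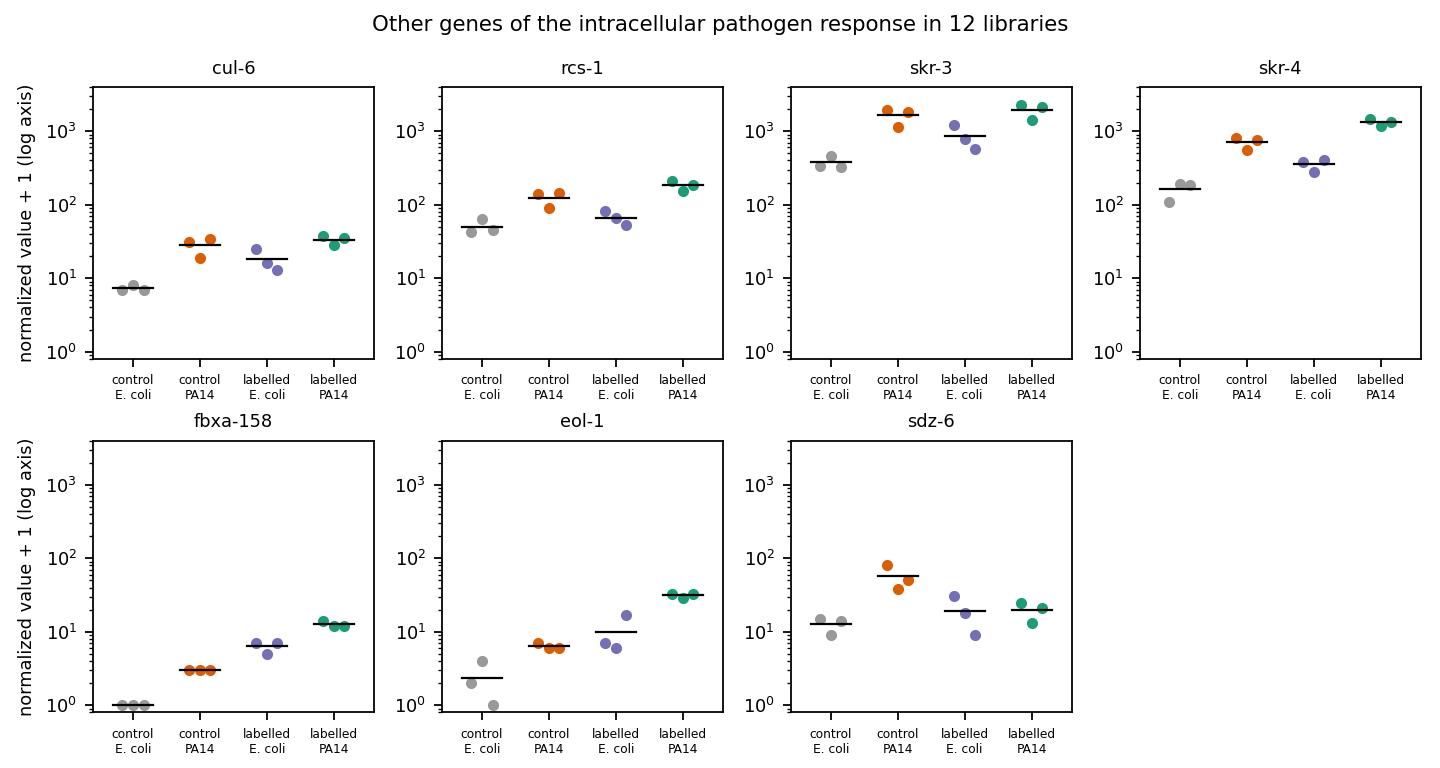
Each panel plots 1 of the 7 tested partner genes of the intracellular pathogen response, as the normalized value plus 1 on a log axis by condition; a point is a library and a line the mean of 3. eol-1 and fbxa-158 are highest in the stt-3-labelled libraries on PA14, and sdz-6 is highest in control RNAi on PA14.

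Of 5 regulators of the program outside the family, zip-1, drh-1, lin-35 and sta-1 were called in no comparison. ZIP-1 is a transcription factor that induces part of the program, and zip-1 had 22 to 24 in control RNAi on E. coli, 39 to 45 on PA14, and with the label 26 to 36 against 35 to 40. drh-1, which encodes the RIG-I-like receptor of viral RNA, ran from 61 to 96 over all libraries. pnp-1, whose purine phosphorylase holds the program off, was called: it had 307, 477 and 359 in control RNAi on E. coli against 848, 728 and 886 on PA14, and 282, 318 and 460 and then 322, 305 and 479 in the stt-3-labelled libraries. It rose with PA14 in control RNAi by 1.12 ± 0.23 (adjusted p = 0.00175) and was lower in the stt-3-labelled libraries on PA14, at -1.18 ± 0.23 (adjusted p = 0.00690), with an interaction of -1.06 ± 0.32 (adjusted p = 0.15).

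The chitinase-like chil genes, induced by oomycetes and also under PALS-22 and PALS-25, numbered 12, of which 7 were tested. PA14 raised chil-22 and no other in either group, by 1.01 ± 0.18 and 1.02 ± 0.18. Called lower with PA14 were chil-14 in both groups, by -1.86 ± 0.50 in control RNAi and -2.81 ± 0.50 with the label (adjusted p = 0.00901 and 0.00105), and chil-23 in the stt-3-labelled libraries, by -1.93 ± 0.64 (adjusted p = 0.0306). chil-23 was also lower on PA14 in the stt-3-labelled libraries, at 3, 2 and 0, than in control RNAi, at 66, 26 and 29. None was called higher in the stt-3-labelled libraries on either food.

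Some tissue markers moved with the food, and some with the label. The summed value of 30 sperm msp genes was 68281 to 168502 in control RNAi on E. coli against 4700 to 11244 on PA14, with 76864 to 133292 and 7396 to 11292 in the stt-3-labelled libraries, and all 30 were called lower with PA14 in both groups. The summed value of 6 intestinal markers was 5299 to 8903 in control RNAi and 2439 to 3246 in the stt-3-labelled libraries on PA14, most of it from act-5, at 3578 to 6593 against 1681 to 2394, which was not called (adjusted p = 0.0550). There vha-6 and ifb-2 were called lower and the other 4 markers were not called. With PA14, elt-7 and ges-1 were called higher in control RNAi (log2 1.24 and 1.07) and ifb-2 lower in the stt-3-labelled libraries (-1.42). Of 4 muscle markers 3 were called lower with PA14 in both groups, as were 3 and then 2 of 5 epidermal markers, beside 15.9% and 14.0% of all tested genes. The epidermal collagen gene dpy-7 was called higher in both, by 1.23 in control RNAi and 1.95 with the label. No marker of neurons, germ line or oocytes was called. The summed neuron markers were yet higher with the label, at 1173 to 1196 against 1371 to 1443 on E. coli and 1438 to 1632 against 1672 to 1789 on PA14. On PA14 the epidermal sum was higher with the label (2582 to 3945 against 3951 to 5134) and the oocyte sum lower (7354 to 8187 against 6482 to 7037). Muscle, germ line and sperm sums overlapped between the RNAi groups on either food. No gene of these lists was at 0 in every library. The part of these shifts in the pals changes was not tested.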

How the data were processed

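RNA of 12 whole-worm samples was sequenced, 3 per condition, grouped by the sample labels. Per the study's methods, the authors aligned reads to WBcel235 with HISAT2 2.0.5, quantified genes with StringTie 1.3.3b and Ballgown, and applied upper-quartile normalization and RUVSeq. The deposited values are thus a normalized score rounded to whole numbers, with totals of 5530614 to 8627187 and upper quartiles of 161 to 164 per library, and depth is unknown. The control genes of RUVSeq and the use of strand are not given in the sources used here.

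Symbols and coordinates came from the WBcel235 annotation (Ensembl release 115); 16626 of 17430 gene IDs had a symbol and 804 did not. Scores were filtered (10 or more in 3 or more libraries) and modelled by limma (version 3.58.1, R version 4.3.3) on log2(value + 1), with a mean-variance trend, 1 mean per condition and all 12 libraries. A call needed a change above 2-fold with an adjusted p below 0.05 by the Benjamini-Hochberg method (interaction: adjusted p alone). The code was checked on simulated data. Alternatives were other filters, a pseudocount of 10, median-of-ratios scaling, a test against 2-fold, fits to the groups compared alone, a replicate block, and leaving out each library. Nothing says that replicates were separate cultures, so p-values measure the spread between these samples. That spread is what was left after upper-quartile normalization and RUVSeq, with which the authors removed batch effects. Within conditions, deviations of same-numbered libraries correlated at 0.53, 0.26 and 0.39 between the RNAi groups on PA14, which was taken as pairing. On E. coli they correlated at 0.02, 0.37 and 0.46, so pairing there was uneven, and between foods at -0.07 to 0.24. The main fit had no replicate term, and the replicate block is the fit that allows for pairing. Named genes were every member, the partner genes and regulators called, and zip-1, drh-1, cul-6 and pnp-1. Members and lists were chosen with earlier results of these data known.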

Additional observations from a re-analysis of the deposited data

Results flagged for a closer look

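The PA14 change of pals-16 differed between the RNAi groups, by -1.66 on the log2 scale (limma interaction, adjusted p = 0.0318): its 3 PA14 values lay above the 3 E. coli values in control RNAi and below them in the libraries labelled stt-3 RNAi. Its adjusted p rose above 0.05 in 8 of the 12 fits that left out 1 library (0.0504 to 0.0957).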

How the results depend on the processing

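The 26 calls of members were refitted 476 times and lost in 59, and the values not called 977 times, of which 14 became calls; 0 called values changed direction. Requiring a value of 20 in 6 libraries left 9 members, with 0 called on E. coli and 2 on PA14 between the RNAi groups, 3 and 4 with PA14 in control RNAi and the labelled libraries, 2 for the interaction (pals-16 and pals-34) and a median PA14 change of 0.94 in the labelled libraries; fewer members could then be called. With no filter, 3, 8, 8, 13 and 1 of 22 were called, and the median between the RNAi groups on PA14 was 0.53. A pseudocount of 10 gave 0 called between the RNAi groups on E. coli, 3 with PA14 in control RNAi, 4 for the interaction (pals-16, with pals-6, pals-33 and pals-34 now higher) and median PA14 changes of 0.59 in control RNAi and 0.94 in the labelled libraries; the cause was not tested. Testing against 2-fold itself left 0 and 3 between the RNAi groups on E. coli and PA14 and 5 with PA14 in the labelled libraries. The 3 were pals-14, pals-26 and pals-33, tested only through the labelled libraries on PA14, so nothing is read from them. Fitting only the groups compared left 0 between the RNAi groups on E. coli. Median-of-ratios scaling gave the counts of the report. Without 1 library at a time the counts ran from 1 to 5 and from 5 to 6 between the RNAi groups on E. coli and PA14, from 6 to 8 and from 9 to 10 with PA14, and from 0 to 1 for the interaction, and the median PA14 change in the labelled libraries from 1.13 to 1.42 (the latter without labelled replicate 3 on E. coli).

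With the replicate block the counts were 3, 6, 6, 9 and 1, and the block ended the call of pals-6 between the RNAi groups on E. coli (adjusted p = 0.0530) and no other call. The sequencing depth is unknown, and low members have the widest standard errors, up to 0.68 for pals-39 between conditions.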
